A study of Mus musculus with 28 samples.

Results

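The genes described here encode chondroitin sulfate proteoglycans and tenascins of the extracellular matrix. They are the lecticans Vcan (versican), Acan (aggrecan), Ncan (neurocan) and Bcan (brevican), the transmembrane proteoglycan Cspg4 (NG2), the tenascins Tnc, Tnr and Tnxb, and the link protein Hapln1. These 9 genes were chosen by name from the 41605 gene identifiers of the count table, and all 9 passed the filter on low counts that left 17700 genes for testing. RNA was sequenced from peripheral nerves of C57BL/6J wild-type mice, which were not perfused, at embryonic days (E) 13 and 17 as labelled and at P1, P5, P14, P24 and P60 (postnatal days), which gave 28 libraries, 4 for each stage. The study describes male and female samples in equal number at each stage, but the labels of the libraries do not give the sex. Each E13 library pooled various nerves distal to the dorsal root ganglia of 2 embryos that were not stripped, although its label reads sciatic nerve, each E17 library pooled the sciatic nerves of 2 embryos, and each postnatal library came from the sciatic nerves of 1 mouse. From E17 on, the epineurium and perineurium were removed as far as possible, so that in every comparison with E13 the age, the nerves taken and the dissection cannot be told apart.

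Proteoglycans of this class carry chains of chondroitin sulfate, a repeating sulfated sugar, on a core protein. The lecticans bind hyaluronan with one end and tenascins with the other, and link proteins clamp them to hyaluronan. Such matrices are best known from perineuronal nets, from cartilage and from scars of the central nervous system that hinder axon growth, whereas in nerve they lie in the endoneurium and around the nodes of Ranvier. Tenascin-C is a matrix protein of growing and injured tissues, and tenascin-X organises collagen fibrils in mature connective tissue.

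Total counts per library ran from 13899895 to 37662780. Levels are given as CPM (the count of a gene relative to the library's total), scaled by the trimmed mean of M-values (TMM), and CPM was divided by kilobases (kb) of merged exon where genes are compared with each other. A gene was called when the edgeR quasi-likelihood test gave a Benjamini-Hochberg adjusted p under 0.05 over all 17700 genes and the fold change was at least 2. The Schwann cell markers Sox10, S100b and Erbb3 were detected in every library, with Sox10 at 34.1 to 170.0 CPM at E13 and at 297 to 348 CPM at E17, S100b at 8.58 to 16.8 CPM and 40.8 to 45.1 CPM, and Erbb3 at 145 to 315 CPM and 826 to 894 CPM. In E13 replicates 1 and 4 and P1 replicate 1, deviations from the stage mean followed transcript GC content, with slopes of -0.91, 0.71 and -0.42 log2 per 10 percentage points against -0.16 to 0.19 in the others. Deviations also followed transcript length in E13 replicates 1 and 4, with slopes of 0.77 and -0.85 log2 per 10-fold length. In the others the slopes were -0.17 to 0.25, highest in E13 replicate 2 (0.25) and P1 replicate 1 (0.24). In bulk RNA, fewer cells of a type and less RNA per cell cannot be told apart.

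All 9 genes changed along the timeline, with an adjusted p under 0.05 over all stages together and stage means at least 1 log2 apart, as did 70.3% of all genes tested. Tnc rose to its highest level at E17 and then fell, while Tnxb rose from E13 to the adult nerve. Ncan, Tnr and Bcan were highest at E13 in every library, and Acan had its highest mean at E13 with overlapping libraries at P5. Vcan was lower at P60 than at E17 and was the main lectican from E17 on, Cspg4 rose between E13 and E17 and then stayed near one level, and Hapln1 was low throughout. The span of stage means was widest for Ncan (10 log2), followed by Tnxb (7.95), Tnr (6.15) and Tnc (5.38), against a median of 1.65 log2 over all genes tested.

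**Figure D1:**
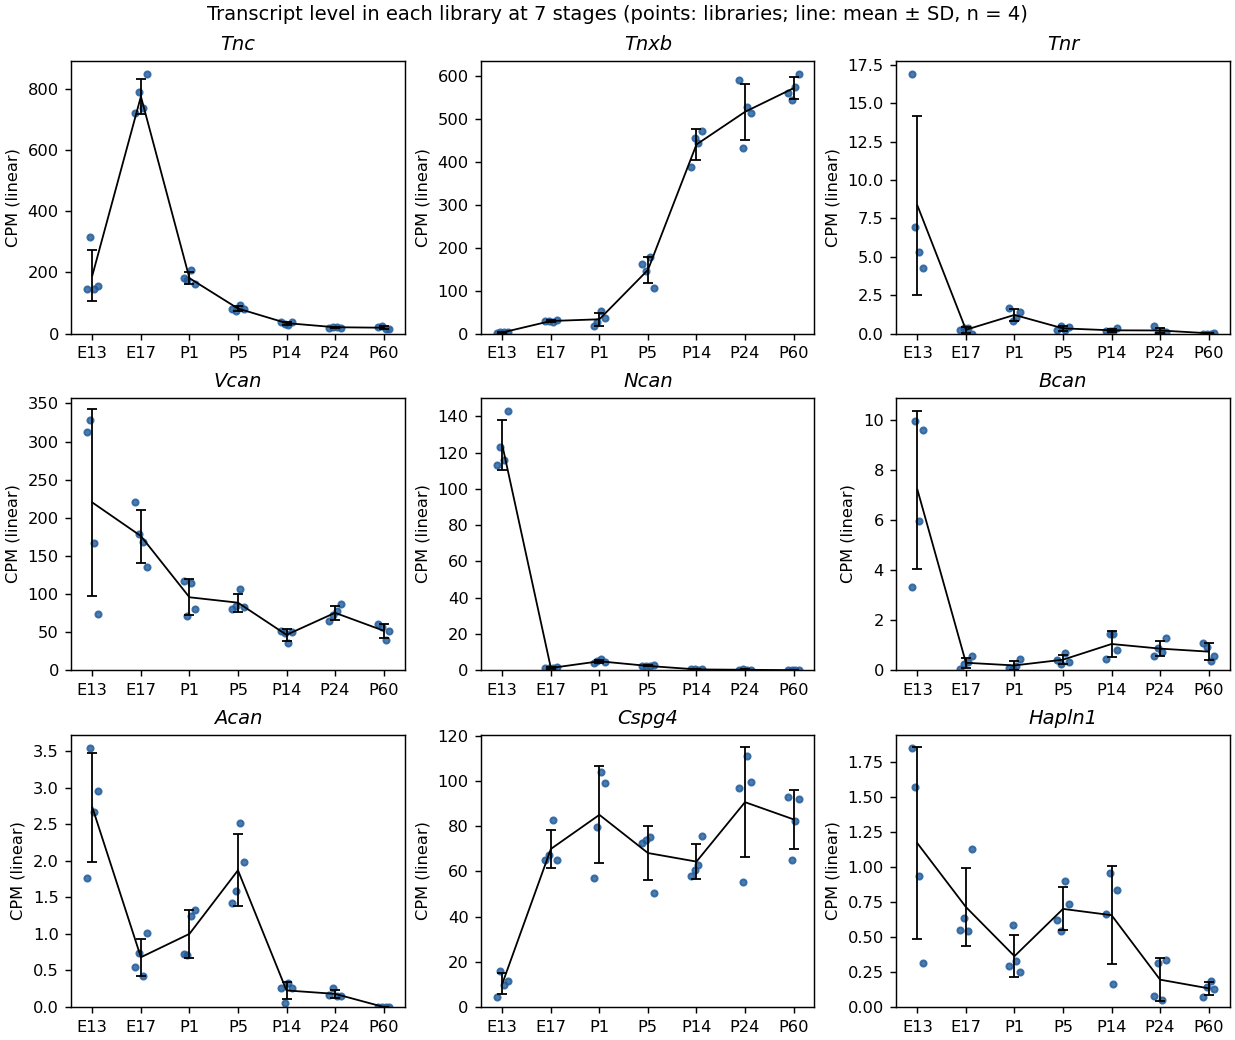
CPM (linear axis, a scale of its own in each panel) of the 9 genes in each of the 28 libraries by stage, with points for libraries and a line for the mean ± SD of 4 libraries. Tnc peaks at E17 with 722 to 849 CPM, Tnxb climbs from 1.23 to 3.03 CPM at E13 to 544 to 604 CPM at P60, and Ncan and Tnr are highest at E13.

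Tnc encodes tenascin-C (ENSMUSG00000028364, chr4:63959785-64047015 on the minus strand, GRCm38, 27 merged exons). At E13 its 4 libraries had 144, 314, 144 and 156 CPM, and at E17 they had 722, 791, 736 and 849 CPM. Every E17 library thus lay above every E13 library, and replicate 2 stood apart from the other 3 at E13. The rise was 2.03 ± 0.19 log2 (SE, n = 4 and 4, adjusted p = 7.0e-10). At P1 the values were 180, 174, 209 and 162 CPM, and at P5 they were 80.4, 74.2, 92.2 and 79.8 CPM. The 4 libraries of each stage lay below all those of the stage before it, and the falls measured -2.10 ± 0.19 log2 (adjusted p = 1.9e-09) and -1.15 ± 0.19 log2 (adjusted p = 6.0e-05). At P14 the values were 36.5, 32.6, 27.5 and 39.2 CPM, a further fall of -1.27 ± 0.19 log2 (adjusted p = 9.2e-06). At P24 they were 19.0, 22.4, 21.4 and 19.0 CPM, where the difference of -0.73 ± 0.19 log2 passed on its adjusted p of 0.0197 but not on its size. The P24 and P60 libraries overlapped, with 20.5, 24.1, 14.9 and 15.9 CPM at P60. From E17 to P60 the Tnc level fell by 5.36 on the log2 scale (± 0.22 SE, adjusted p = 1.9e-17), or 41.1-fold.

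Tnxb encodes tenascin-X (ENSMUSG00000033327, chr17:34670535-34719815 on the plus strand, 41 merged exons). Its 4 libraries had 1.23, 3.03, 2.46 and 2.63 CPM at E13 and 28.3, 29.9, 26.7 and 31.4 CPM at E17. The rise of 3.65 ± 0.26 log2 (adjusted p = 2.2e-12) was the largest among the 9 genes between these stages. Around birth the level was not called different, with 18.3, 26.4, 52.1 and 35.4 CPM at P1 (0.19 ± 0.22 log2, adjusted p = 0.572). At P5 the values were 161, 146, 179 and 107 CPM, and at P14 they were 388, 456, 444 and 472 CPM. Both rises separated the libraries completely and measured 2.17 ± 0.22 log2 (adjusted p = 5.8e-08) and 1.57 ± 0.22 log2 (adjusted p = 3.2e-06). The values were 590, 432, 528 and 513 CPM at P24 and 560, 544, 574 and 604 CPM at P60, and neither step was called (adjusted p = 0.708 and 0.734). From E17 to P60 Tnxb rose by 4.29 ± 0.25 log2 (adjusted p = 1.5e-14), or 19.6-fold. Markers of the fibroblasts and sheath cells of the nerve also changed with stage. The summed level of the 5 perineurial markers (Slc2a1, Cldn1, Itgb4, Msln and Lypd2) was 39.8 to 74.3 CPM at E13, 245 to 284 at E17, 150 to 228 at P1, 174 to 220 at P5, 471 to 580 at P14, 526 to 843 at P24 and 1010 to 1460 at P60. That of the 5 epineurial fibroblast markers (Pcolce2, Clec3b, Dpt, Pi16 and Sfrp2) was 18.7 to 23.2 CPM at E13, 8.07 to 28 at E17, 1.68 to 14.3 at P1, 10.2 to 37.4 at P5, 46.0 to 89.7 at P14, 30.2 to 155 at P24 and 31.8 to 67.7 at P60. From E17 to P60, 4 of these 5 rose and Sfrp2 fell (-2.32 ± 0.77 log2, adjusted p = 0.0106). The 5 markers of endoneurial mesenchymal cells (Etv1, Sox9, Osr2, Wif1 and Meox1) summed to 37.3 to 67.4 CPM at E13, 54.8 to 63.2 at E17, 67.5 to 86.1 at P1, 58.6 to 69.7 at P5, 41.0 to 49.5 at P14, 40.1 to 59.0 at P24 and 49.9 to 64.2 at P60. Among them Osr2 rose from E13 to E17 (3.05 ± 0.28 log2, adjusted p = 4.4e-10) and from E17 to P60 (1.60 ± 0.23 log2, adjusted p = 1.2e-06). Wif1 fell over the first of these spans (-4.36 ± 0.65 log2, adjusted p = 1.9e-06), Meox1 fell over the second (-1.52 ± 0.32 log2, adjusted p = 1.6e-04), and Etv1 and Sox9 were called in neither. None of the markers of these 3 lists was at 0 at any stage, and their part in the rise of Tnxb was not tested.

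Because both genes are counted in the same library, the ratio of Tnxb to Tnc needs no scaling between libraries. The log2 ratio of counts was -6.32 ± 0.53 at E13 (SD, n = 4), -4.73 ± 0.05 at E17 and -2.55 ± 0.58 at P1. It turned positive at P5, at 0.84 ± 0.28, and reached 3.70 ± 0.26 at P14, 4.65 ± 0.29 at P24 and 4.94 ± 0.38 at P60. Up to P24, libraries of neighbouring stages did not overlap. These 5 steps measured 1.59, 2.18, 3.39, 2.86 and 0.95 log2, and that from P24 to P60 measured 0.29. Between E17 and P60 the means of the ratio were 9.68 log2 apart. These 2 genes were paired with their opposite courses known, so the ratio is a description and no test is given.

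**Figure D2:**
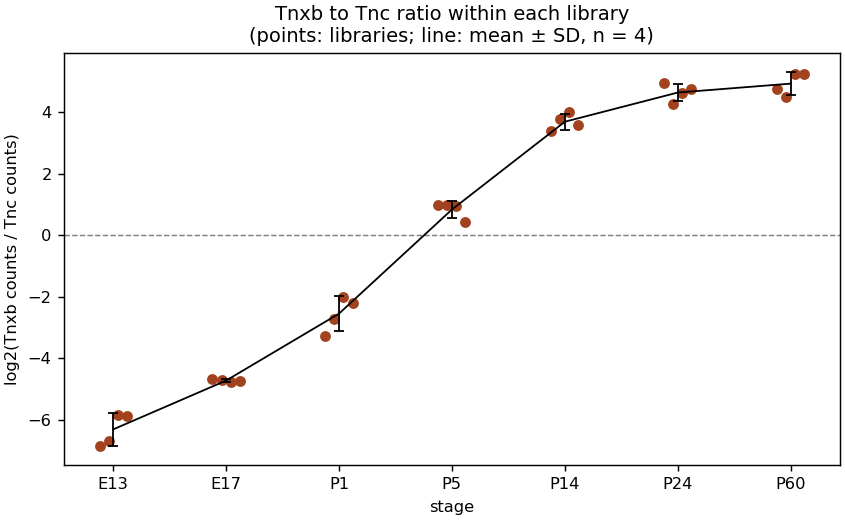
Log2 ratio of Tnxb to Tnc counts in each library (points) by stage, with the mean ± SD of 4 libraries as a line and a dashed line where the counts are equal. All libraries up to P1 lie below 0 and all libraries from P5 on lie above it.

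The sequences around the start sites of these tenascin genes are shown because the genes ran in opposite directions, with Tnr and Ncan added since both rose again at P1 (values further on). Each is 300 bases from RefSeq (GRCm38.p6) in the direction of transcription, and all 9 genes had an entry. Capitals mark matches to any of 4 short motifs searched on both strands, namely the TATA box TATAAA (found in 13.6% of 32851 promoters of the same length), the GC box GGGCGG (35.7%), the AP-1 motif TGANTCA (7.81%) and the SOX motifs ACAATG or ACAAAG (28.6%). The windows lie at chr4:64046966-64047265 (minus strand) for Tnc, chr17:34670285-34670584 (plus strand) for Tnxb, chr8:70120795-70121094 (minus strand) for Ncan and chr1:159523519-159523818 (plus strand) for Tnr.
Tnc: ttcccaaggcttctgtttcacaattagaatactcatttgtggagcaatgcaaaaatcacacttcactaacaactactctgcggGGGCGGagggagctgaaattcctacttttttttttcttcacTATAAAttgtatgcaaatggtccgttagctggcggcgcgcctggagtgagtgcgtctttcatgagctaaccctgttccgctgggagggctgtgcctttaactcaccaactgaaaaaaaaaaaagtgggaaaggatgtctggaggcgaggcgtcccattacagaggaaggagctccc
Tnxb: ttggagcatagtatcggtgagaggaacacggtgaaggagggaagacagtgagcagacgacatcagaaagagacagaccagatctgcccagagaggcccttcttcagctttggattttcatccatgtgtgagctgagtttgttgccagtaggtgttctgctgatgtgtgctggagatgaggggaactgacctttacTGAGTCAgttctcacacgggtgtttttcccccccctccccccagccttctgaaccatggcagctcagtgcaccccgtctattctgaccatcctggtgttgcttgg
Ncan: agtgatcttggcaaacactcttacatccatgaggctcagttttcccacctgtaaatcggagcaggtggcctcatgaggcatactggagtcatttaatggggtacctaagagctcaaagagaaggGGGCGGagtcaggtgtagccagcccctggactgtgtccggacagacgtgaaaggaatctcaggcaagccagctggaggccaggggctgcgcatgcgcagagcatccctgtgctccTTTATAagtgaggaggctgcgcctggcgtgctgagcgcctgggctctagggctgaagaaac
Tnr: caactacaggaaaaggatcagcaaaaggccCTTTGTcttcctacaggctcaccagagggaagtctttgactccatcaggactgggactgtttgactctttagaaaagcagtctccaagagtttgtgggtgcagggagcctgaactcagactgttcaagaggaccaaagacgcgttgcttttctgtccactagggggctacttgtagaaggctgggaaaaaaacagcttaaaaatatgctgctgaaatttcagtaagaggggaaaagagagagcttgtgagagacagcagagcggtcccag
The Tnc window held a GC box at position -167 and a TATA box at -126 from the start site, and the Tnxb window held only an AP-1 motif at -55. The Ncan window held a GC box at -126 and a TATA box in reverse orientation at -11, and that of Tnr a SOX motif in reverse orientation at -220. No motif overlapped another in these windows. Of the other 5 genes, Acan had 3 GC boxes, Vcan and Cspg4 had 2 each, Bcan had 1, and Hapln1 had no match to any of the 4 motifs. These are matches of letters only, and binding was not measured.

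Tnr encodes tenascin-R (ENSMUSG00000015829, chr1:159523769-159931729, plus strand), a tenascin of central nervous tissue and perineuronal nets. It had 16.9, 6.91, 5.31 and 4.26 CPM at E13 and 0.22, 0.37, 0.388 and 0 CPM at E17, where the counts were 4, 7, 10 and 0. All E13 libraries were therefore far above all E17 libraries, with a fall of -4.99 ± 0.55 log2 (adjusted p = 1.1e-08). At P1 the level was 1.64, 0.791, 1.02 and 1.40 CPM, a rise of 2.21 ± 0.55 log2 (adjusted p = 0.00296) that separated the libraries. It then fell to 0.335 ± 0.151 CPM at P5 (SD, n = 4; -1.80 ± 0.51 log2, adjusted p = 0.0127) and was not called between P5 and P14 or P14 and P24. A single count remained over the 4 P60 libraries, and the E17 level was 15.8 times the P60 level with a 95% counting interval of 2.55 to 655.

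Ncan encodes neurocan (ENSMUSG00000002341, chr8:70093085-70120873, minus strand), a lectican of the nervous system. At E13 its libraries had 113, 123, 116 and 143 CPM, and at E17 they had 0.99, 1.11, 1.2 and 1.63 CPM. The fall of -6.65 ± 0.23 log2 (adjusted p = 1.2e-18), or 101-fold, was the largest change of any of the 9 genes between neighbouring stages. Ncan rose again at P1, to 4.16, 5.04, 5.98 and 4.53 CPM (2.00 ± 0.21 log2, adjusted p = 2.7e-08). All P1 libraries were above all E17 libraries and all P5 libraries, which had 2.08, 2.49, 2.18 and 2.72 CPM. The fall from P1 to P5 was -1.05 ± 0.19 log2 (adjusted p = 2.1e-04), close to the fold minimum. It missed that minimum without P1 replicate 3 (-0.95 log2) and without P5 replicate 1 (-0.99 log2). At P14 Ncan was at 0.449 ± 0.103 CPM (-2.40 ± 0.25 log2, adjusted p = 2.8e-08), and at P60 only 2 counts were left over 4 libraries.

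Ncan and Tnr had the highest Pearson's r of any pair of the 9 genes over their 7 stage means (r = 0.97), a description over stages and not over independent samples. By the root mean square distance of centred stage means they were 1.29 log2 apart, and the closest pair was Vcan and Hapln1 (0.67 log2). Both shared the high level at E13 with markers of sensory neuron cell bodies (Avil, Prph, Isl1 and Pou4f1), whose summed level was 207 to 309 CPM at E13 and 10.1 to 15.2 CPM at E17. That sum was 3.17 to 7.17 CPM at P1, 4.19 to 5.90 at P5, 4.97 to 6.65 at P14, 6.47 to 9.46 at P24 and 13.2 to 16.3 at P60. The sum of the central glia markers Gfap, Olig1, Olig2 and Aqp4 was 4.04 to 6.33 CPM at E13, 0.22 to 0.698 CPM at E17 and 0.0416 to 0.182 CPM at P1, with Olig1 and Olig2 at 0 counts at E17 and P1. Gfap went the other way between E13 and E17 (1.28 ± 0.56 log2, adjusted p = 0.0466), and the sum was 0.0859 to 0.33 CPM at P5, 0.767 to 3.14 at P14, 4.78 to 9.07 at P24 and 7.40 to 11.8 at P60. The sum at P60 was mostly Gfap, which rose from E17 to P60 (4.40 ± 0.44 log2, adjusted p = 1.2e-09). At P60 Olig1 and Olig2 were at 0 counts and Aqp4 had at most 3 counts in any library. Over the 4 P60 libraries Ncan had 2 counts and Tnr had 1. What part these cells had in the levels of Ncan and Tnr at E13 and at P1 was not tested. The rises at P1 were also called without P1 replicate 1, whose values followed GC content.

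Vcan encodes versican (ENSMUSG00000021614, chr13:89655312-89742509, minus strand), the most widely expressed lectican. At E13 its libraries ranged widely, with 313, 328, 167 and 73.1 CPM, and at E17 they had 221, 179, 168 and 136 CPM. These stages overlapped and the difference of -0.32 ± 0.28 log2 was not called (adjusted p = 0.316). The lowest E13 value was that of replicate 4, whose deviations favoured short transcripts and those rich in GC. Vcan is the longest of the 9 genes, with 14462 bp of merged exon, and the GC content of its transcripts was 43.7%. The part of these trends in the spread was not tested. From E17 to P1, where the values were 117, 71.3, 114 and 80.0 CPM, the libraries separated and the difference of -0.88 ± 0.28 log2 (adjusted p = 0.0177) did not reach the fold minimum. Without P1 replicate 1 it was -1.0 log2 and was called. At P5 the level was 88.6 ± 11.6 CPM. At P14 it was 52.0, 48.2, 35.3 and 50.2 CPM, again below all libraries of the stage before, but the difference of -0.93 ± 0.28 log2 (adjusted p = 0.0128) did not reach the fold minimum and was not called. With scaling by library size only, this difference was -1.11 log2 and was called (adjusted p = 0.00451). The P24 libraries, at 64.5, 72.6, 77.6 and 86.3 CPM, all lay above those of P14 and above those of P60, but neither step was called (adjusted p = 0.179 and 0.218). Over the span from E17 to P60 Vcan fell by 1.76 on the log2 scale (± 0.29 SE, adjusted p = 5.8e-06), or 3.39-fold.

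Acan encodes aggrecan (ENSMUSG00000030607, chr7:79053483-79115099, plus strand), the lectican of cartilage. It had 1.76, 3.55, 2.67 and 2.95 CPM at E13 and 0.55, 0.739, 0.427 and 1.01 CPM at E17, a fall of -2.02 ± 0.35 log2 (adjusted p = 2.8e-05) with no overlap of libraries. It was at 1.0 ± 0.331 CPM at P1 and 1.87 ± 0.494 CPM at P5, where the libraries did not overlap but the difference was not called (0.89 ± 0.33 log2, adjusted p = 0.0672). It then fell to 0.226 ± 0.117 CPM at P14 (-2.97 ± 0.39 log2, adjusted p = 2.7e-06). No P60 library had a count of Acan, so that its level was at least 3.1-fold lower than at E17 when set against 3 counts in the shallowest P60 library (0.219 CPM). The 6 cartilage markers (Col2a1, Col9a1, Matn1, Matn3, Cnmd and Comp) summed to 106 to 328 CPM at E13, 107 to 128 at E17, 60 to 85.3 at P1, 72.8 to 84.8 at P5, 21.8 to 30.5 at P14, 43.5 to 51.3 at P24 and 32.1 to 45.6 at P60, where Acan had no count. They did not move as 1 group, since between P5 and P14 Col2a1 (-3.94 ± 0.31 log2) and Col9a1 (-1.54 ± 0.27 log2) fell and Cnmd rose (2.86 ± 0.22 log2, adjusted p = 1.6e-10, 8.5e-05 and 1.5e-10 in this order). Col2a1 also serves in the study as a marker of endoneurial cells. At E13, where the mean of Acan was highest, each of the 6 markers had over 3 counts in at least 1 library. Matn1 had at most 3 counts in any library of each stage from E17 on, Matn3 from P5 on, and Comp at P1. The part of cartilage in the Acan level was not tested.

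Bcan encodes brevican (ENSMUSG00000004892, chr3:87987531-88000230, minus strand), a lectican of the central nervous system. Its libraries had 3.35, 9.97, 5.96 and 9.63 CPM at E13 and 0.055, 0.264, 0.31 and 0.566 CPM at E17. The fall of -4.59 ± 0.54 log2 (adjusted p = 3.4e-08) separated the stages completely. Bcan was called higher at 1 later step, from 0.422 ± 0.186 CPM at P5 to 1.05 ± 0.505 CPM at P14 (1.33 ± 0.51 log2, adjusted p = 0.0492). That call is weak, since the libraries overlapped (0.258 to 0.685 CPM against 0.46 to 1.47 CPM). It was lost when any of 6 single libraries was left out, namely P5 replicates 1, 2 and 4 and P14 replicates 2, 3 and 4 (adjusted p = 0.0528 to 0.155). At P60 Bcan was at 0.744 ± 0.333 CPM, and the difference from E17 was not called (1.31 ± 0.59 log2, adjusted p = 0.0549). That outcome depends on the processing, since DESeq2 (adjusted p = 0.0326) and limma-voom (adjusted p = 0.0391) called Bcan higher at P60. So did edgeR in some alternatives, among them removal of GC trends (adjusted p = 0.0278) and the fit without E13 (adjusted p = 0.0444). The libraries overlapped, with 0.055 to 0.566 CPM at E17 and 0.373 to 1.10 CPM at P60.

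Cspg4 encodes NG2 (ENSMUSG00000032911, chr9:56865033-56899870, plus strand), a transmembrane proteoglycan known as a marker of pericytes and of glial progenitors. At E13 its libraries had 4.47, 15.7, 9.75 and 11.4 CPM, and at E17 they had 65.1, 67.2, 82.6 and 64.8 CPM. The libraries did not overlap, and the rise was 2.76 ± 0.27 log2 (adjusted p = 1.0e-09), or 6.79-fold. From E17 on the stage means lay between 64.3 and 90.6 CPM, no later step was called, and the libraries of each stage overlapped those of the next. Without the E13 libraries, Cspg4 was no longer changed along the timeline (adjusted p = 0.101). The 5 markers of pericytes and smooth muscle (Rgs5, Kcnj8, Abcc9, Acta2 and Myh11) summed to 88.0 to 189 CPM at E13 and 98.5 to 129 CPM at E17, with overlapping libraries, and to 347 to 419 CPM at P60. Between E13 and E17 they went different ways, since Abcc9 rose (1.64 ± 0.23 log2, adjusted p = 7.1e-07) and Acta2, a smooth muscle gene, fell (-4.04 ± 0.54 log2, adjusted p = 3.3e-07). The pericyte genes Kcnj8 (0.87 ± 0.19 log2, adjusted p = 3.6e-04) and Rgs5 (0.42 ± 0.18 log2, adjusted p = 0.0423) did not reach the fold minimum, and Myh11, of smooth muscle, was at -0.38 ± 0.55 log2 (adjusted p = 0.566). From E17 to P60 Acta2 (4.64 ± 0.55 log2, adjusted p = 3.3e-08), Myh11 (5.66 ± 0.53 log2, adjusted p = 3.4e-10) and Rgs5 (1.89 ± 0.18 log2, adjusted p = 6.1e-10) rose. Kcnj8 (-0.39 ± 0.19 log2, adjusted p = 0.0799) and Abcc9 (-0.93 ± 0.23 log2, adjusted p = 8.4e-04) were not called over that span. The part of these cells in the Cspg4 level was not tested.

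Hapln1 encodes the link protein of cartilage and perineuronal nets (ENSMUSG00000021613, chr13:89539796-89611652, plus strand). Its level was low, at 0.316 to 1.85 CPM in the E13 libraries and 0.0731 to 0.187 CPM in the P60 libraries, with 8 counts over the latter. No step between neighbouring stages was called. From E17 (0.714 ± 0.281 CPM) to P60 (0.133 ± 0.0471 CPM) it fell by 2.35 on the log2 scale (± 0.64 SE, adjusted p = 0.00241), with no overlap of libraries. This call rests on the filter over all stages, since Hapln1 did not pass it in a fit of E17 and P60 alone and was not tested there. Between P14 and P24 its difference of -1.62 ± 0.57 log2 had an adjusted p of 0.109, and it was called without P14 replicate 3 (-1.95 log2, adjusted p = 0.0385).

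Counted over the 9 genes, 3 rose and 4 fell between E13 and E17, when 14.2% of all genes tested were called higher and 21.2% lower. The rises were of Cspg4, Tnc and Tnxb, and the falls of Acan, Ncan, Bcan and Tnr. Markers of tissue around the nerve moved over the same step. The 4 skeletal muscle markers (Myh3, Myh8, Acta1 and Ckm) summed to 18.8 to 485 CPM at E13, 4.23 to 17.3 at E17, 0.0931 to 1.39 at P1 and at most 4.48 at later stages. From E13 to E17 Myh3 (-4.52 ± 0.79 log2), Myh8 (-3.08 ± 0.91 log2) and Acta1 (-3.23 ± 0.80 log2) fell and Ckm rose (3.39 ± 0.89 log2), and from E17 to P1 all 4 fell. The 3 tendon markers (Scx, Tnmd and Mkx) summed to 2.89 to 6.82 CPM at E13 and 1.53 to 2.76 at E17, and Scx, with at most 3 counts in any E17 library, was the one called (lower, adjusted p = 8.0e-06). The part of these tissues in the changes of the 9 genes was not tested. Between E17 and P1, 2 rose (Ncan and Tnr, against 6.31% of all genes) and 1 fell (Tnc, against 5.41%). Between P1 and P5, 1 rose (Tnxb, against 4.05%) and 3 fell (Ncan, Tnc and Tnr, against 1.79%). Between P5 and P14, 2 rose (Bcan and Tnxb, against 7.11%) and 3 fell (Acan, Ncan and Tnc, against 4.91%). Between P14 and P24, when edgeR called 1.51% of all genes higher and 1.14% lower, it called 0 of the 9. DESeq2 called 0 and limma-voom called 1, and 4 (Vcan, Ncan, Tnc and Hapln1) had an unadjusted p under 0.05. The shares of all genes are of edgeR calls. None is given for unadjusted p, DESeq2 or limma-voom, here or from E17 to P60, so those counts are not read against a share. Between P24 and P60, 0 rose (2.55% of all genes) and 2 fell (Acan and Ncan, against 3.41%). Both of these rest on few counts, since Acan went from 14 counts over 4 libraries to 0 and Ncan from 20 to 2. Both passed the filter on low counts through other stages and were not tested in a fit of P24 and P60 alone. These 2 falls are therefore not read against the share of all genes. Acan was at or under the level of 3 counts at both stages and has no fold, and the ratio for Ncan was 7.56 with a 95% counting interval of 1.84 to 66.7. The Ncan call was lost without P24 replicate 2 (adjusted p = 0.0952). From E17 to P60, 1 of the 9 was higher (Tnxb, against 22.2%) and 6 were lower (Vcan, Acan, Ncan, Tnc, Tnr and Hapln1, against 17.5%), while DESeq2 and limma-voom each called 8. Of these 6, Acan, Tnr and Hapln1 passed the filter on low counts through other stages, and a fit of E17 and P60 alone, where they and Bcan were not tested, called 4 of the 9. The Tnr libraries of the 2 stages overlapped. The count of falls is therefore not read against the share of all genes. For Ncan this last ratio was 36.2 with a counting interval of 9.76 to 303. Comparisons that have a stage in common share its 4 libraries and are not independent.

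**Figure D3:**
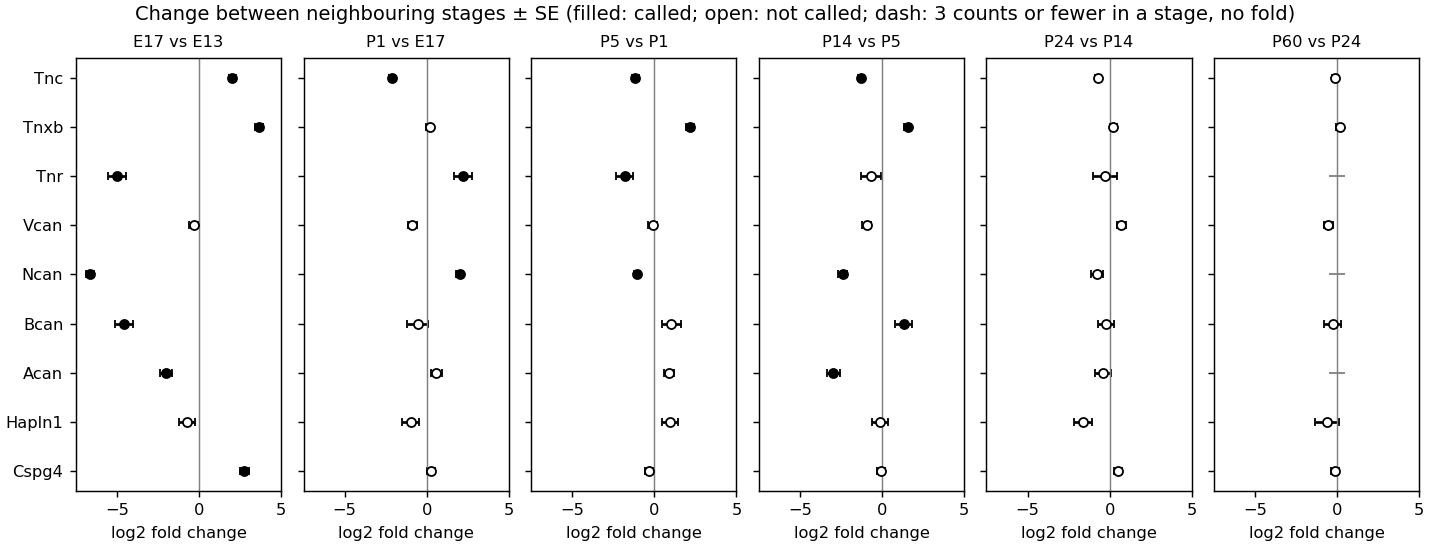
Log2 fold change (± SE) of the 9 genes between neighbouring stages, with filled points for called genes, open points for genes not called, and a grey dash where a stage had 3 counts or fewer over its 4 libraries and no fold is drawn. All filled points lie in the first 4 panels, up to P14, and the calls of Acan and Ncan between P24 and P60 are among the dashes.

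Per length, the mixture of lecticans and of tenascins changed as follows. At E13 Ncan made up 51.8% ± 14.9 and Vcan 41.7% ± 17.4 of the lectican level per kb (SD, n = 4). Their order was split, with Vcan above Ncan in E13 replicates 1 and 2 and below it in replicates 3 and 4. From E17 on Vcan took between 88.0% and 97.1% as a stage mean, and the share of Ncan was 1.45% at E17, 9.46% at P1 and 0.117% at P60. The sum of the 4 lecticans went from 34.6 ± 7.13 CPM per kb at E13 to 12.5 ± 2.30 at E17 and 3.77 ± 0.729 at P60. Among the tenascins, Tnc made up 97.6% ± 0.0732 of the level per kb at E17 and 89.5% ± 3.35 at P1. At P5 Tnxb had overtaken it with 53.2% ± 4.83, and in P5 replicate 4 alone Tnc was still the larger share, at 53.9%. At P60 Tnxb made up 95% ± 1.25 of the tenascin level. The sum of all 9 genes was highest at E17, at 121 ± 5.50 CPM per kb, of which Tnc was 82.6% ± 2.45. It was lowest at P5, at 35.3 ± 4.63, and rose again to 59.9 ± 2.48 at P60, of which Tnxb was 78.0% ± 1.95. These shares are descriptions and were not tested.

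**Figure D4:**
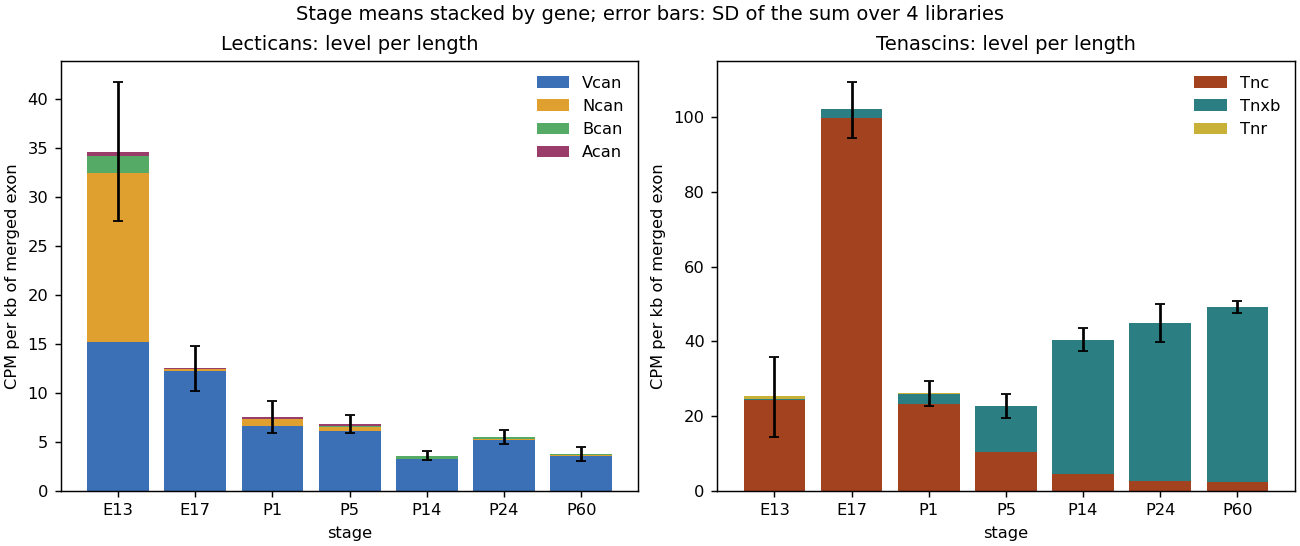
Stage means of CPM per kb of merged exon, stacked by gene, for the 4 lecticans (left) and the 3 tenascins (right), with error bars for the SD of the sum over 4 libraries. The lectican sum falls from 34.6 at E13 to 3.77 at P60, and the tenascin bars pass from mostly Tnc, at a sum of 102 at E17, to mostly Tnxb, at 49.2 at P60.

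Each lectican gene lies next to a link protein gene, with 0 protein-coding genes between them in GENCODE (GRCm38). Vcan and Hapln1 lie 43659 bases apart on chromosome 13, Acan and Hapln3 2 bases apart on chromosome 7, Bcan and Hapln2 21519 bases apart on chromosome 3, and Ncan and Hapln4 2222 bases apart on chromosome 8. The pairs are convergent except for Bcan and Hapln2, which share a strand. Their stage means had Pearson's r of 0.63, 0.58, 0.08 and 0.86 in the same order, over 7 stages that share normalisation and the distinct E13 tissue. Hapln2, a link protein of nodes of Ranvier, went its own way, since it rose from 0.056 ± 0.0476 CPM at E17 to 2.70 ± 0.286 CPM at P60 (5.32 ± 0.79 log2, adjusted p = 1.5e-06). Hapln3 rose at P1, from 0.597 ± 0.442 to 2.30 ± 0.681 CPM (1.94 ± 0.45 log2, adjusted p = 0.00155), and fell at P14. Acan and Hapln3 thus meet almost end to end. Of the 9 genes, Tnc shares 176 exon bases with the transcript 8030451A03Rik, which had 36 counts in all libraries together against 114318 for Tnc. Tnr shares 443 with Gm38039, which had 0 counts, and Tnxb shares 3 with the pseudogene Cyp21a2-ps. Whether the counting used the strand is not stated in the sources used here.

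Other genes of the family changed in 6 of 6 cases along the timeline, against 70.3% of all genes tested. Ptprz1, a receptor phosphatase that is itself a chondroitin sulfate proteoglycan and binds tenascins, had a course like that of Tnc. It rose from 94.3 ± 54.9 CPM at E13 to 382 ± 14 CPM at E17 (2.02 ± 0.27 log2, adjusted p = 4.1e-07) and stood at 6.31 ± 0.691 CPM at P60, -5.92 ± 0.33 log2 from E17 (adjusted p = 1.1e-14). Cspg5 (neuroglycan C) was highest at E13 with 30.2 ± 6.34 CPM and fell to 5.67 ± 0.481 CPM at E17 (-2.41 ± 0.21 log2, adjusted p = 1.9e-10). Tnn, which encodes tenascin-N, fell between E13 and E17 (adjusted p = 1.5e-04) and had no counts from P14 on.

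Of 12 genes for building the chondroitin chain, 9 changed along the timeline, near the 70.3% of all genes, with a median span of 1.47 log2 against 1.65 over all genes. From E13 to E17, 3 rose (against 14.2% of all genes) and 0 fell (21.2%), and from E17 to P60, 0 rose (22.2%) and 3 fell (17.5%). Csgalnact1, which starts the chain on its linker, rose from 5.68 ± 3.06 to 45.9 ± 1.16 CPM between E13 and E17 (3.00 ± 0.22 log2, adjusted p = 4.3e-12). The chain polymerases Chsy1 and Chsy3 fell between P5 and P14, Chsy1 from 62.0 ± 2.88 to 17.8 ± 2.17 CPM (-1.80 ± 0.14 log2, adjusted p = 9.7e-11) and Chsy3 from 10.7 ± 1.01 to 4.11 ± 0.523 CPM (-1.37 ± 0.23 log2, adjusted p = 5.2e-05). Xylt1, which adds the first sugar to the core protein, was at 12.2 ± 0.342 CPM at E17 and 2.80 ± 0.485 CPM at P60 (-2.13 ± 0.22 log2, adjusted p = 2.6e-09).

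Of 13 genes of sulfation and epimerisation, 12 were tested and 10 changed (70.3% of all genes), with a median span of 1.83 log2. Between E13 and E17, 5 rose (14.2% of all genes) and 2 fell (21.2%). Ust, which sulfates uronic acid, rose from 15.1 ± 0.538 CPM at E13 to 68.2 ± 1.56 CPM at E17 and 217 ± 6.98 CPM at P1, by 2.17 ± 0.08 log2 (adjusted p = 5.5e-18) and 1.67 ± 0.08 log2 (adjusted p = 1.4e-15). Chst11, a chondroitin 4-O-sulfotransferase, fell over the same steps from 21.7 ± 2.21 to 7.01 ± 1.07 and 2.72 ± 0.752 CPM (adjusted p = 3.8e-07 and 4.1e-05). Dsel, a dermatan sulfate epimerase, rose between E13 and E17 (2.37 ± 0.27 log2, adjusted p = 2.0e-08). So did Papss2, which makes the sulfate donor (1.70 ± 0.17 log2, adjusted p = 1.4e-09).

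Of 10 genes of hyaluronan metabolism, 9 were tested and 8 changed (70.3% of all genes), with a median span of 2.65 log2. Between E13 and E17, 3 rose (14.2% of all genes) and 3 fell (21.2%). Cemip, which takes part in hyaluronan breakdown, went from 9.37 ± 4.12 to 0.0915 ± 0.0327 CPM (-6.63 ± 0.80 log2, adjusted p = 6.5e-08), and Lyve1, a hyaluronan receptor of lymphatic vessels and some macrophages, from 48.4 ± 9.17 to 2.06 ± 1.36 CPM (-4.58 ± 0.57 log2, adjusted p = 9.7e-08). The hyaluronan synthase gene Has3 fell too (adjusted p = 1.9e-09) and rose again between P5 and P14, from 1.53 ± 0.266 to 4.39 ± 0.914 CPM (1.52 ± 0.27 log2, adjusted p = 8.5e-05). Tnfaip6, whose product modifies hyaluronan, rose from 4.09 ± 0.769 to 29.7 ± 1.96 CPM between E13 and E17 (adjusted p = 7.0e-17).

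All 8 genes listed for proteases that cleave proteoglycans, Timp3 included, changed along the timeline (70.3% of all genes), with a median span of 2.56 log2. Adamts20, a protease that cleaves versican, rose from 8.37 ± 4.32 CPM at E13 to 275 ± 13.1 CPM at E17 (5.03 ± 0.22 log2, adjusted p = 2.4e-16) and to 643 ± 29.7 CPM at P1. It stood at 101 ± 5.22 CPM at P60, after a fall from P24 of -1.63 ± 0.19 log2 (adjusted p = 6.2e-07). Adamts15 fell from E17 to P60, from 148 ± 17.7 to 13.4 ± 2.16 CPM (-3.48 ± 0.20 log2, adjusted p = 1.2e-14). Timp3, an inhibitor of these proteases, rose from 469 ± 27.6 to 1750 ± 53.8 CPM (1.90 ± 0.12 log2, adjusted p = 2.5e-13). Adamts8 was low, at 0.316 ± 0.169 CPM at P14 against 1.96 ± 0.529 CPM at P5 (-2.60 ± 0.46 log2, adjusted p = 7.4e-05).

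Of 16 receptors and matrix partners, 15 were tested and 12 changed, near the 70.3% of all genes, with a median span of 2.14 log2. Between E13 and E17, 6 rose (14.2% of all genes) and 3 fell (21.2%), and from E17 to P60, 4 rose (22.2%) and 4 fell (17.5%). Itgb3, a subunit of an integrin that binds tenascin-C, rose from 50.8 ± 13.4 to 319 ± 7.01 CPM between E13 and E17 (2.65 ± 0.13 log2, adjusted p = 1.2e-15) and was at 12.5 ± 1.30 CPM at P60 (-4.68 ± 0.14 log2 from E17, adjusted p = 3.3e-20). Cntn1 (contactin-1), an axonal and glial adhesion molecule, peaked at E17 with 214 ± 6.62 CPM and was at 22.2 ± 2.58 CPM at P60 (-3.26 ± 0.32 log2, adjusted p = 1.0e-09). Rtn4rl1, a Nogo receptor homologue that binds chondroitin sulfate, fell between E13 and E17 and rose from 0.641 ± 0.353 CPM at E17 to 3.85 ± 0.699 CPM at P60 (2.59 ± 0.40 log2, adjusted p = 2.4e-06). Fbln1 (fibulin-1), a ligand of lecticans, was at 95.3 ± 44.7 CPM at E13, 42.5 ± 2.06 CPM at E17 and 13.6 ± 4.26 CPM at P1, with both falls called (adjusted p = 0.0173 and 0.0041).

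**Figure D5:**
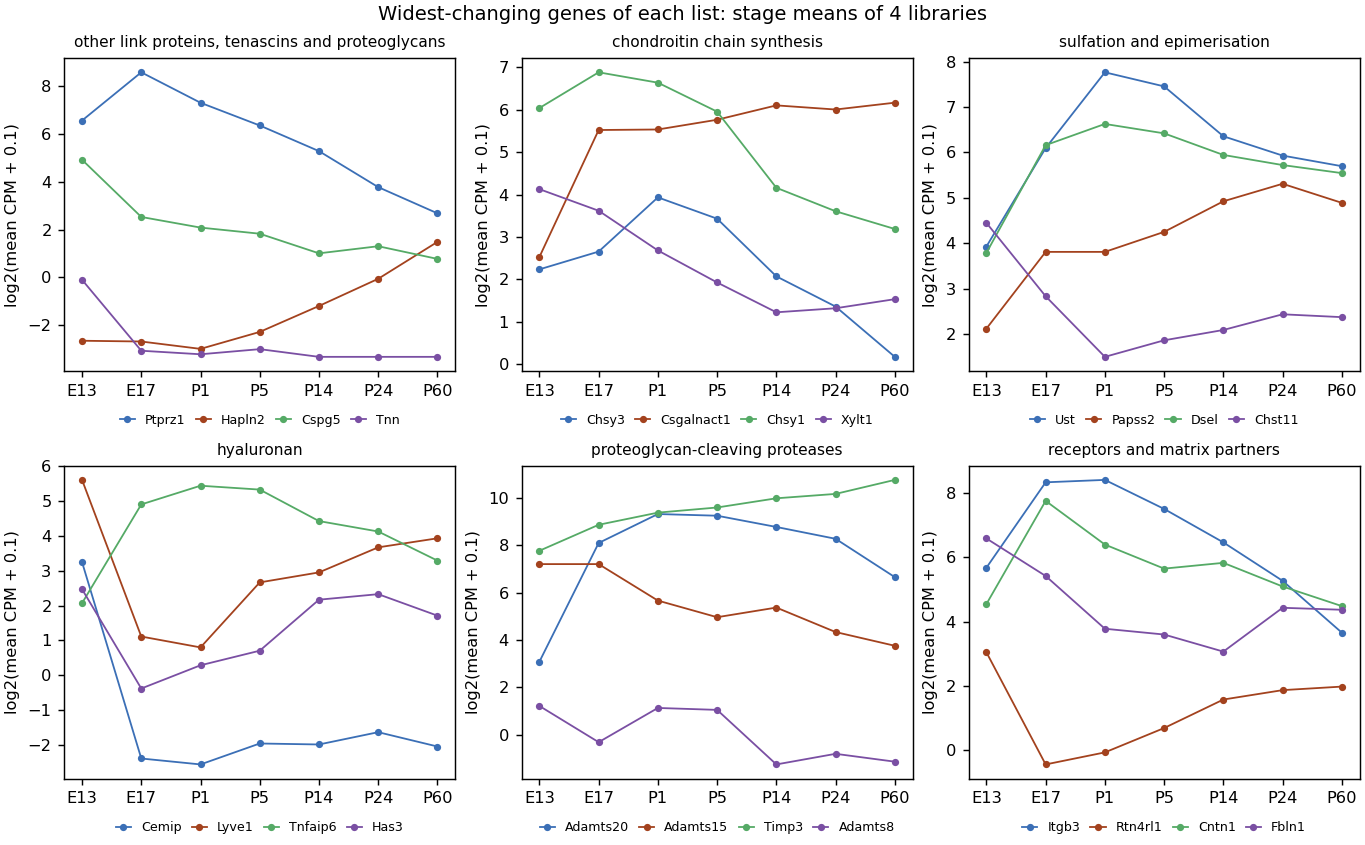
Log2 of the mean CPM of 4 libraries plus 0.1 by stage, for the 4 genes with the widest span of stage means in each of 6 lists of related genes (log axis, a scale of its own in each panel). Ptprz1, Cntn1 and Itgb3 are high at E17 or P1 and decline, while Hapln2, Csgalnact1, Papss2 and Timp3 end above their E13 level.

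For each of the 9 genes, the 3 protein-coding genes with the nearest course were found among 14560 by the root mean square distance between centred stage means in log2 over the 7 stages. Those nearest to Tnc were Alcam (0.29 log2), Slitrk2 (0.35) and Nsl1 (0.36). Nearest to Tnxb were Ogn (0.26), which encodes the collagen-associated proteoglycan osteoglycin, Ly6c1 (0.47) and Angptl7 (0.57). Ogn ran from 18.0 CPM at E13 to 2360 CPM at P60. Those nearest to Vcan were Adora3 (0.17), Emilin1 (0.17) and Slc35g2 (0.19), and nearest to Cspg4 were Il17rc (0.14), Wdr66 (0.17) and Lmna (0.22). For the genes that were highest at E13 the distances were larger in part, with Gpr17 (0.61), Adgrv1 (0.68) and Myt1 (0.82) for Ncan, Clvs2 (0.45), Calb1 (0.47) and Unc80 (0.49) for Tnr, and Cntn3 (0.40), Rapgefl1 (0.46) and Mdk (0.51) for Acan. For Bcan these were Dll1 (0.25), Ngef (0.29) and Kremen2 (0.30), and for Hapln1 they were Tmc8 (0.22), Igdcc3 (0.28) and Fgf5 (0.30). Some of these genes rest on few counts. Adora3 went from 0.46 CPM at E13 to 0.0468 CPM at P60, and Clvs2 and Calb1 were at 0 CPM at P60. There, 3 counts in the shallowest library are 0.219 CPM.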

How the data were processed

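Per the labels and the study's methods, the authors made stranded TruSeq libraries of poly-A RNA, trimmed adapters and low-quality ends, aligned single-end reads with STAR 2.6.1c and counted them per gene with featureCounts. The submitters' processing notes name the mouse build GRCm38.p5, while the methods print a human build name. Whether strand was used in counting, and how reads with several alignments were treated, is not given in the sources used here.

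The values analysed were the deposited raw counts per gene, with 28 columns that all belong to labelled libraries and with 41605 identifiers, of which 41519 matched GENCODE M21 (GRCm38) for symbols, lengths and coordinates. Total counts of 13899895 to 37662780 per library make counting error small for abundant genes and limiting for genes of a few counts. Intervals and the floor of 3 counts cover counting error only. No libraries were identical, and the 42 pairs of replicates differed by more than sampling noise (chi-square per degree of freedom 5.21 to 292.9).

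Genes were filtered with filterByExpr by stage, scaled by TMM and fitted over all 28 libraries with edgeR 4.0.16 in R 4.3.3 (robust glmQLFit and glmQLFTest). Stage was the single factor of the model, and this test was chosen because no differential test of the timeline is described in the methods. Adjusted p-values are Benjamini-Hochberg values over 17700 genes, and ± beside a log2 difference is its standard error. The log2 ratio of Tnxb to Tnc used 0.5 added to each count. Exact permutation tests of this ratio were run (SciPy 1.17.1) but are not quoted, because the pair was chosen with its opposite courses known. Libraries were counted as replicates because the study describes them as independent samples. The scripts were tested on simulated counts.

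The 9 genes, the related lists and the markers were chosen with earlier results of these data known. From each related list the text names up to 4 genes with the widest span of stage means among those changed along the timeline, and Hapln3 and Hapln4 were named besides as neighbours of lectican genes. Alternatives were other scalings and filters, DESeq2 1.42.0, limma-voom (limma 3.58.1), fits on fewer stages, removal of GC or length trends, a replicate block, no fold minimum and each library left out in turn. Leaving out E13 replicates 1 and 4 and P1 replicate 1 together was chosen after seeing the data. Some markers of the Schwann cell list are not reported here.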

Additional observations from a re-analysis of the deposited data

Results flagged for a closer look

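In 9 of 70 groups of 4 libraries, 1 library lay far from the other 3. Its gap exceeded Dixon's 95% critical share of the range, which chance gives in about 1 in 20 groups of normally distributed values. Groups of a few counts are not distributed so, and the 9 are not read against that rate. Tnc at E13 was 314 CPM in replicate 2 against 144 to 156 CPM in the others. Vcan at P5 was 106 CPM in replicate 3 against 80.8 to 84.4 CPM. Cspg4 was 82.6 CPM in E17 replicate 3 against 64.8 to 67.2 CPM, and 50.5 CPM in P5 replicate 4 against 72.7 to 75.3 CPM.

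In P5 replicate 4 the log2 ratio of Tnxb to Tnc was also the lowest of its stage, at 0.424 against 0.957 to 1.0. The others were at low counts. Hapln1 was 1.13 CPM in E17 replicate 4 against 0.543 to 0.634 CPM, Acan 0.262 CPM in P24 replicate 2 against 0.148 to 0.158 CPM, and Tnr 0.342 CPM in P14 replicate 4 against 0.153 to 0.17 CPM. At P60 the single count of Tnr was in replicate 4, at 0.0628 CPM against 0 in the others.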

How the results depend on the processing

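Of 23 called differences of single genes between stages, leaving aside those with 3 counts or fewer in a stage, 456 of 466 recomputed values kept their direction and their side of the threshold. The other 10 lost the call and belonged to Bcan between P5 and P14 (8, of which 2 with scaling by library size only and with no filter on low counts) and Ncan between P1 and P5 (2), and 0 changed sign. Of the 34 differences not called, 17 of 682 values became called and 10 changed sign. These sign changes were of Vcan between E13 and E17 (0.01 with limma-voom) and between P1 and P5 (0.0 with limma-voom, 0.02 without P1 replicate 1 and 0.02 without that library and E13 replicates 1 and 4), Cspg4 between E17 and P60 (-0.06 with library size only), Tnr between P14 and P24 (0.08 without P14 replicate 4), Tnxb between E17 and P1 (-0.11 without P1 replicate 3) and Hapln1 between P5 and P14 (0.04 without P5 replicate 3, 0.23 without P14 replicate 3) and between P24 and P60 (0.1 with limma-voom), all in log2. With single libraries left out these differences ran from -0.23 to 0.02 for Vcan between P1 and P5, -0.97 to 0.08 for Tnr and -0.11 to 0.38 for Tnxb. Bcan from E17 to P60 was called in 7 of its alternatives, namely DESeq2, limma-voom, the replicate block (adjusted p = 0.033), removal of GC trends, the fit without E13, and without E17 replicate 4 or P60 replicate 3.

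Of the 9 genes, 1 was called between P14 and P24 with limma-voom, with GC trends removed, without E13 (Hapln1 each time), without a fold minimum (Tnc) and without P14 replicate 3 (range 0 to 1 over single libraries left out). Between P24 and P60 the count was 0 in a fit of the compared stages only, where 4 of the 9 (Acan, Ncan, Tnr and Hapln1) no longer passed the filter, and 1 to 2 with single libraries left out. From E17 to P60 it was 4 in such a fit, where Acan, Bcan, Tnr and Hapln1 were not tested, and 7 to 8 with libraries left out. Without the E13 libraries 8 of the 9 changed along the timeline. With scaling by library size only, the median of all genes moved to -0.33, -0.11, -0.19, -0.17, 0.05, 0.1 and -0.31 log2 in the 7 comparisons in time order, the last being P60 with E17.

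Replicate numbers were not taken to pair libraries. Correlations of same-numbered libraries ran from -0.394 to 0.771 over 84 pairs, with a median of 0.203 against -0.0981 for differently numbered libraries. Of the 28 libraries, 18 were closest to their own number, a hint from the data and not from the design. With the replicate block the count called between E13 and E17 was 7 and no count of calls moved by over 1.5 times. The Tnxb to Tnc ratio is a description, and pairing libraries by number left its differences at 1.59, 2.18, 3.39, 2.86, 0.95 and 9.68 log2 (in time order, the last from E17 to P60), as the block cannot move a mean of 4 pairs. With single libraries left out they were 1.41 to 1.74, 2.0 to 2.43, 3.15 to 3.58, 2.72 to 2.96, 0.84 to 1.07 and 9.57 to 9.83.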
